A study of Homo sapiens with 16 samples.

Results

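The clustered protocadherin genes were taken as every protein-coding gene whose symbol is PCDHA, PCDHB or PCDHG followed by a digit, A, B or C, which gave 53 of 56865 genes. All 53 lie on the plus strand of chromosome 5 (GRCh38, GENCODE 29). The 15 PCDHA genes span 140786136 to 141012347, the 16 PCDHB genes 141051135 to 141249365, and the 22 PCDHG genes 141330571 to 141512981. Another 6 loci of the same name stems annotated as pseudogenes were left out. RNA-seq of poly(A) RNA was available for 16 libraries in 4 groups of 4. Both lines derive from NCI-H1299, a non-small cell lung cancer line that lacks p53. One is the parental p53-null line and the other stably expresses p53 Y220C, a cancer mutant with a destabilised DNA-binding domain. Each line received DMSO vehicle or 10 µM MS78 for 24 h. MS78 is known as a bifunctional compound that recruits p300/CBP acetyltransferases to the Y220C mutant. Only the Y220C line was kept in G418 (500 µg/mL), so the transgene, the drug selection and any difference between the derived lines cannot be told apart. The labels do not say whether the Y220C line is 1 clone, or whether the 4 libraries of a group came from separate cultures. The p-values therefore measure the spread between these libraries, which may be technical.

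Clustered protocadherins are cell-surface adhesion proteins of the cadherin superfamily, known best from neurons, where each cell uses its own combination of isoforms and contacts between identical combinations trigger self-avoidance. Each gene has its own promoter. Promoter choice is known to depend on CTCF and cohesin, which bind at the promoters and at distant enhancers, and silent promoters carry DNA methylation and repressive histone marks. In the PCDHA and PCDHG clusters a large variable exon, coding for the extracellular cadherin repeats and the membrane-spanning segment, is spliced to 3 constant exons that all genes of the cluster share and that code for the common cytoplasmic end. PCDHB genes have a single large coding exon and no constant exons. The genes PCDHAC1, PCDHAC2, PCDHGC3, PCDHGC4 and PCDHGC5 form the C type, which is less subject to random choice than the others, and PCDHGC3 is also known outside neurons.

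The promoters are shown first because most of the genes hold the tetramer CGCT just upstream of the start. This tetramer is known as the core of a conserved sequence element of most of these promoters. Only the tetramer was searched for and not the whole element, so a match need not belong to that element. Whether it bears on the levels described afterwards was not tested. Promoter sequences (RefSeq, GRCh38.p14, 250 bases before to 50 after the start) matched 47 of the 53 genes. A CGCT on the gene's own strand began within the 100 bases before the start in 44 of the 47, while 28.7% of 35116 promoter windows of all genes hold one there. On either strand of the whole window, CGCT was found in 46 of the 47 and in 70.0% of all windows. The counts out of 47 are per gene, where a match in any window counts, while the percentages of all genes are per window. By window, 98.1% of the 52 windows of the 47 genes held CGCT on either strand. PCDHGB1, PCDHGB4, PCDHGB5, PCDHGB6 and PCDHGC4 each had a further window without a match in the 100 bases. PCDHA9, PCDHB8 and PCDHGB2 had no such match in the 100 bases, which says only that these letters are absent from that stretch. The following 40-base windows, on the plus strand and 5′ to 3′, have the matched CGCT in capitals and come from genes whose values are given below.
PCDHA4, chr5:140806977-140807016: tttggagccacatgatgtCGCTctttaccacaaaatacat
PCDHA11, chr5:140868881-140868920: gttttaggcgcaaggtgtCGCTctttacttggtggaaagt
PCDHA12, chr5:140875242-140875281: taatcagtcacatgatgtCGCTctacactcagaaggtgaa
PCDHAC1, chr5:140926218-140926257: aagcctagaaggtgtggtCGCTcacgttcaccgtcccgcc
PCDHB2, chr5:141094542-141094581: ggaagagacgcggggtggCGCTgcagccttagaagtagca
PCDHB5, chr5:141135177-141135216: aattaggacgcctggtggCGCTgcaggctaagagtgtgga
PCDHB14, chr5:141223261-141223300: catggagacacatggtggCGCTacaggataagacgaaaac
PCDHB16, chr5:141182308-141182347: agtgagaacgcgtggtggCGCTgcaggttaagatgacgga
PCDHGA3, chr5:141343765-141343804: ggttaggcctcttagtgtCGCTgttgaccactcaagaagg
PCDHGA5, chr5:141364105-141364144: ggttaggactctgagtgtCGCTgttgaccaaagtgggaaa
PCDHGA6, chr5:141373833-141373872: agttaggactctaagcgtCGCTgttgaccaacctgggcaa
PCDHGC3, chr5:141475878-141475917: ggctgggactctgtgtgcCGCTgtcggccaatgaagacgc
The letters directly before the matched CGCT went largely with the cluster. They were tgt in 10 of the 12 PCDHA genes with a match in the 100 bases (the exceptions were the C-type genes PCDHAC1 and PCDHAC2), tgg in 12 of 13 PCDHB genes (the exception was PCDHB1), and cgc in 10 of 19 PCDHG genes, among which PCDHGA3, PCDHGA4 and PCDHGA5 read tgt. A match is a description of the letters and not a measured binding site.

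Libraries held 20.3 to 27.7 M assigned reads. The leukocyte gene PTPRC had 55 to 99 reads in 8 libraries (replicate 1 of both DMSO groups and replicates 2 to 4 of both MS78 groups) and 0 or 1 in the other 8, and the summed level of 12 leukocyte markers was 56.3 to 120 CPM (reads scaled to the library's size) against 2.80 to 10.7 CPM. Since 6 of the 8 libraries with PTPRC reads received MS78, results are also given within each set of 8, where one arm of each treatment comparison is a single library that is assumed to vary like the others. Between the lines, the sets give 3 libraries against 3 without PTPRC reads under DMSO and with them under MS78. The other set is then 1 library against 1, with the spread borrowed from the other groups. The part of these reads in the results was not tested beyond that. Neuronal markers (12 genes) summed to 639 to 710 CPM in null cells with DMSO, 823 to 861 with MS78, 470 to 542 in Y220C cells with DMSO and 540 to 551 with MS78. Most of that sum was TUBB3, INA, MAP2 and SNAP25, whereas ELAVL4 had 0 reads in every library and STMN2 at most 2. Of the others, SYT1 had 265 to 364 reads in a library and ELAVL3 13 to 307. RBFOX3, GAP43, NEFL and NEFM had at most 13, 29, 34 and 31. Of the epithelial and lung markers (8 genes), KRT8 and KRT18 made up nearly all of a sum of 473 to 519, 460 to 472, 798 to 845 and 609 to 647 CPM in the same order of groups, while the alveolar gene SFTPC had 0 or 1 read and the lung factor NKX2-1 at most 7. The part of these marker shifts in the protocadherin results was not tested.

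A few of the 53 genes carried most of the signal. On the length-corrected scale (the deposited TPM values, mean of 16 libraries), PCDHGA3 was highest at 30.5, followed by PCDHGC3 at 27.4, PCDHB5 at 19.7, PCDHB2 at 13.4, PCDHB6 at 9.93, PCDHB11 at 5.86, PCDHB14 at 4.43, PCDHAC2 at 2.82 and PCDHA11 at 2.43. The order of the first pair depended on the group. PCDHGA3 was at 31.4 ± 2.04 TPM (SD, n = 4) in null cells with DMSO, where PCDHGC3 was at 26.8 ± 2.55, but with MS78 the null cells had 34.0 ± 0.627 TPM of PCDHGA3 and 39.1 ± 2.56 of PCDHGC3. PCDHB6 lay below PCDHB2 in null cells with DMSO, at 9.77 ± 0.289 and 14.8 ± 0.971 TPM. In Y220C cells with MS78 they stood at 11.1 ± 0.522 and 10.7 ± 0.895, which do not differ beyond their spread. Within the clusters, PCDHGA3 took 54.3% ± 0.983 (SD, n = 4) and PCDHGC3 32.99% ± 0.645 of the PCDHG reads in null cells with DMSO. PCDHB5 took 34.8% ± 1.35 of the PCDHB reads there, and PCDHAC2 took 36.9% ± 3.16 and PCDHA11 22.6% ± 1.87 of the PCDHA reads.

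**Figure D1:**
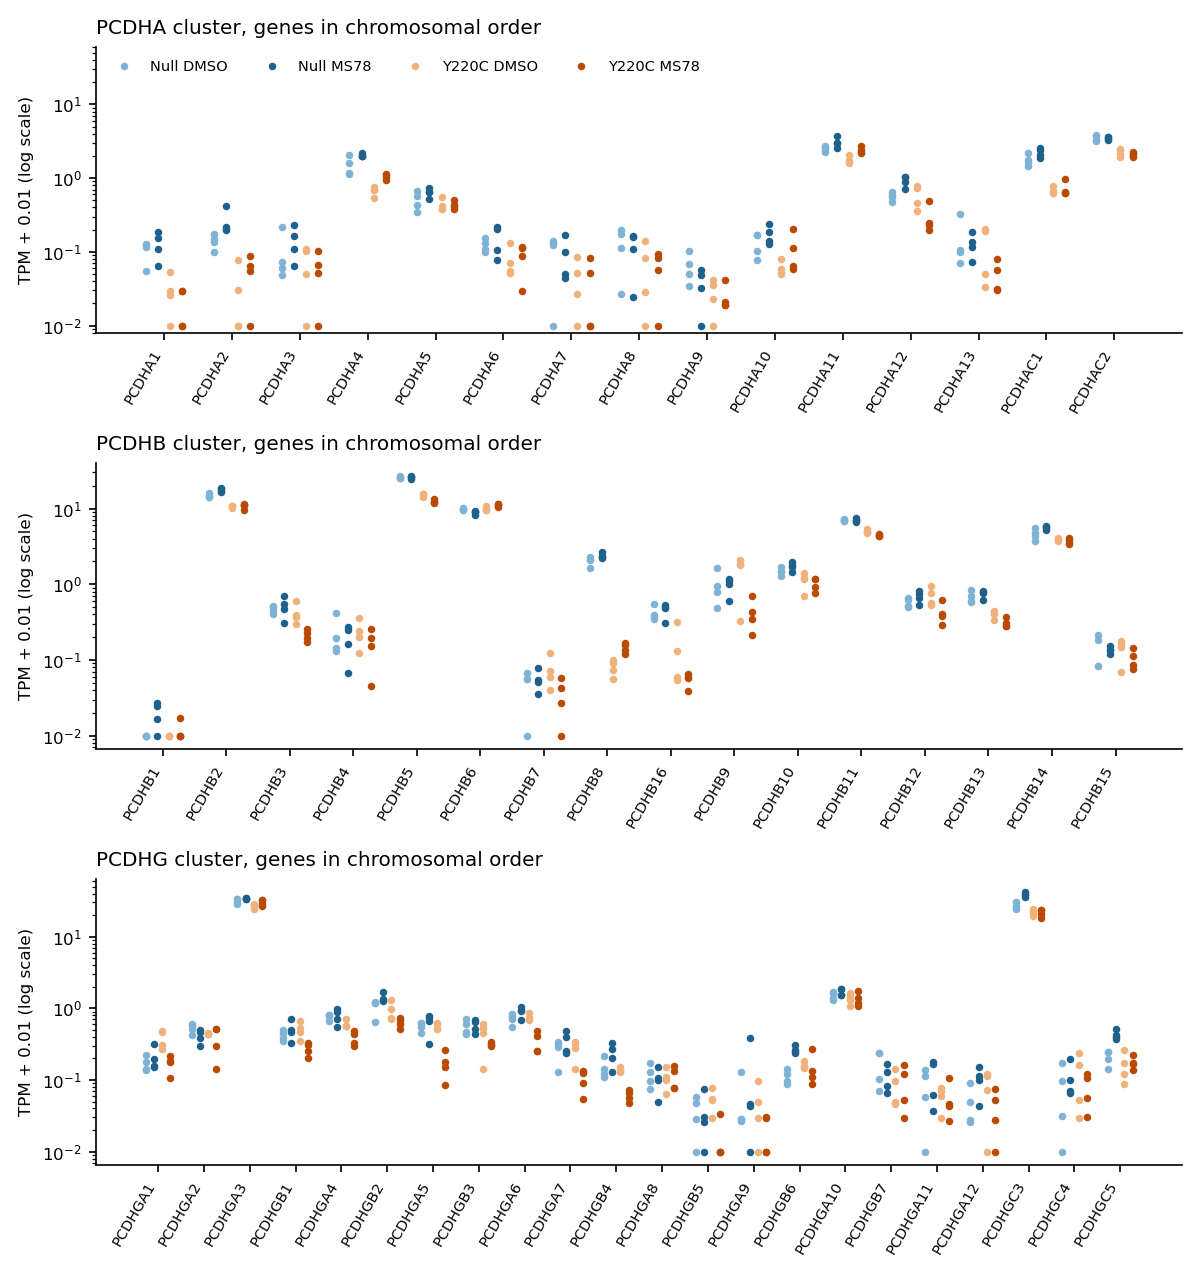
TPM + 0.01 (log axis) of each of the 53 genes in chromosomal order, one panel per cluster; each point is a library, coloured by group, 4 per group. PCDHGA3 and PCDHGC3 stand above the other PCDHG genes, PCDHB8 and PCDHB16 drop in the Y220C groups, and points at the bottom edge are libraries with 0 TPM.

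Low expression limited the tests. Of the 53 genes, 39 had enough reads to be tested (8 PCDHA, 14 PCDHB and 17 PCDHG). Counts below cover these 39 and not the whole set. The other 14 did not exceed a group mean of 0.606 CPM or 23 reads in any library. Of the 39, 31 reached a group mean of 1 CPM. The genes also share sequence, so that reads may be split between them by the authors' quantification. Of all stretches of 31 bases in a gene's transcripts, 39.1% in PCDHGC3, 57.4% in PCDHGA3, 53.6% in PCDHA11, 62.6% in PCDHA12 and 73.4% in PCDHGB4 also occur in another clustered protocadherin. For PCDHGC3, PCDHGA3, PCDHA11 and PCDHA12 this is in large part the constant exons. These hold 59, 89 and 2718 bases in PCDHA and 59, 89 and 2033 bases in PCDHG. PCDHGB4 shares 5044 stretches, more than the constant exons can hold, and 63.9% of its stretches also occur in PCDHGA8. PCDHB5 (19.8%) and PCDHB6 (20.4%) share less. Antisense genes overlap the clusters but had at most 8 reads in a library.

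The cluster totals, which do not depend on how reads are split within a cluster, were lower in the Y220C line than in the null line for all 3 clusters. The PCDHA total was 43.4, 43.5, 44.3 and 42.9 CPM in null cells with DMSO and 53.9, 52.6, 53.4 and 53.5 with MS78. In Y220C cells it was 27.2, 28.2, 28.3 and 25.6 with DMSO and 31.5, 32.8, 29.9 and 30.5 with MS78. No 2 of the 4 groups overlapped, and both lines were higher with MS78. For PCDHB the null libraries were at 175 to 186 CPM with DMSO and 187 to 200 with MS78, and the Y220C libraries at 130 to 134 and 122 to 128. Here MS78 went with a higher total in null cells and a lower one in Y220C cells. PCDHG stood at 171 to 187 and 224 to 229 CPM in null cells and at 152 to 158 and 159 to 171 in Y220C cells. In bulk RNA, fewer expressing cells and less RNA per cell cannot be told apart.

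**Figure D2:**
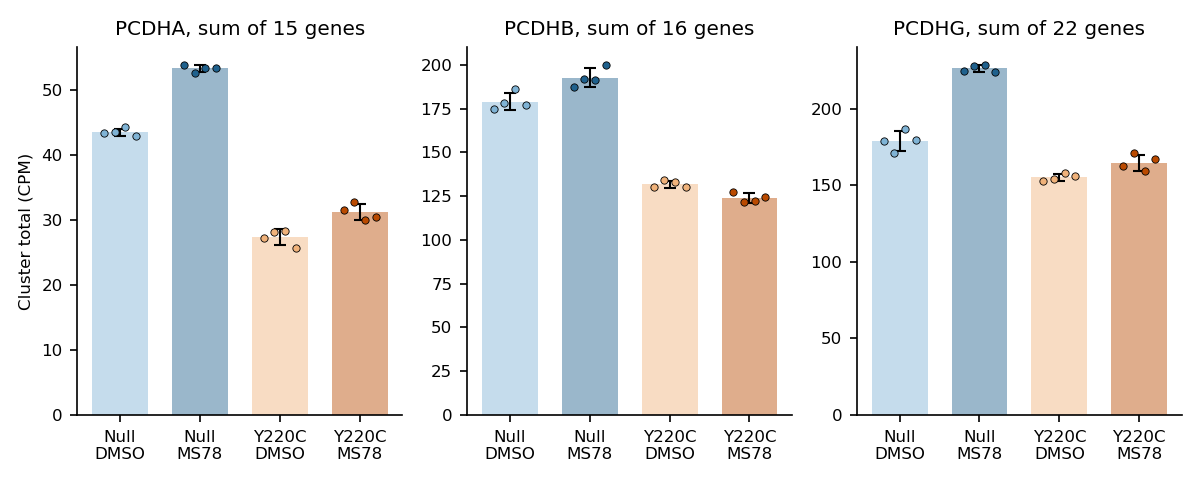
Summed CPM of the PCDHA, PCDHB and PCDHG genes; bars are group means, whiskers SD, points the 4 libraries of a group, and axes start at 0. All Y220C libraries lie below all null libraries in each cluster. For PCDHG the margin is narrow, with the highest Y220C library (MS78) at 170.7 CPM and the lowest null library (DMSO) at 170.8. The largest step with MS78 is in the PCDHG total of null cells (178.8 to 226.4 CPM).

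In p53-null cells, where the compound's mutant target is absent, MS78 raised the PCDHA and PCDHG totals. The PCDHA total rose from 43.5 ± 0.551 to 53.3 ± 0.551 CPM (SD, n = 4), a log2 fold change of 0.29 (SE 0.039, edgeR quasi-likelihood adjusted p = 6.38e-06). The PCDHG total rose from 178.8 ± 6.51 to 226.4 ± 2.35 CPM (log2 0.34, SE 0.0332, adjusted p = 8.06e-08). Within the PTPRC sets the PCDHG change was 0.33 in both (adjusted p = 0.000591 and 0.0155), and the PCDHA change 0.28 with PTPRC reads (adjusted p = 0.0141) and 0.30 without (adjusted p = 0.0526). The PCDHB total rose by a log2 of 0.11 (SE 0.0325, adjusted p = 0.0188). It did not pass without Null DMSO replicate 1 (adjusted p = 0.0774), Null DMSO replicate 4 (0.0575) or Null MS78 replicate 4 (0.0762), with no filter on low genes (0.122), and within the sets with PTPRC reads (0.0918) and without (0.775).

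Of the 39 tested genes, 8 rose and 0 fell in null cells, where 28.1% of all 15687 tested genes passed the same threshold, 14.8% higher and 13.3% lower. At an unadjusted p under 0.05 with edgeR, 13 of the 39 were higher and 0 lower. The share of all genes at that unadjusted threshold is not given here. With DESeq2 after adjustment 7 were higher and 0 lower, where 2271 of all 16168 tested genes were higher and 1993 lower. The median log2 change of the 39 was 0.25, and that of all tested genes 0.01. PCDHGC3 made the largest contribution. Its libraries were at 59.9, 56.5, 59.9 and 59.7 CPM with DMSO and 91.9, 91.1, 91.6 and 87.2 with MS78. The groups lie far apart, with a log2 change of 0.62 (SE 0.0522, adjusted p = 9.9e-09) that held within both PTPRC sets (0.58, adjusted p = 2.73e-05, and 0.64, adjusted p = 0.00133). Of the 47.5 CPM by which the PCDHG total grew, PCDHGC3 gave 31.5. PCDHGC5, another C-type gene, went from 0.471 to 0.815 CPM up to 1.33 to 1.84 (log2 1.16, SE 0.311, adjusted p = 0.00762). PCDHGA3, the highest gene of the cluster, went from 92.8 to 102 CPM up to 105 to 110 (log2 0.15, SE 0.0432, adjusted p = 0.0113). It did not pass without Null DMSO replicate 2 (adjusted p = 0.0594), within the PTPRC sets (0.0649 and 0.561) and with length-scaled TPM (0.085). PCDHGB6 was called from 7 to 11 reads a library with DMSO and 19 to 25 with MS78 (log2 1.31, adjusted p = 0.00618). Neither the PCDHGB6 call nor that of PCDHGC5 passed within the PTPRC sets (adjusted p = 0.422 and 0.199 for PCDHGB6, 0.224 and 0.293 for PCDHGC5).

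PCDHA11 led the PCDHA genes in null cells, at 10.0, 8.75, 9.95 and 10.6 CPM with DMSO and 13.7, 12.1, 15.2 and 13.5 with MS78. These groups do not overlap, and the log2 change was 0.47 (SE 0.0785, adjusted p = 0.0001). Within the PTPRC sets it was 0.42 and 0.48 and did not pass (adjusted p = 0.0584 and 0.0646), nor with length-scaled TPM (0.31, adjusted p = 0.0782). PCDHAC1 rose by a log2 of 0.40 (SE 0.147, adjusted p = 0.0455) with overlapping groups of 4.48 to 7.03 and 5.83 to 8.13 CPM. Its call was lost without any one of Null DMSO replicates 1, 3 and 4, Null MS78 replicates 2, 3 and 4, Y220C DMSO replicates 1 and 3 and Y220C MS78 replicate 3 (adjusted p between 0.051 and 0.154). It was also lost with DESeq2 (0.0674), length-scaled TPM (0.131), protein-coding transcripts only (0.058) and a PTPRC term (0.141), and was 0.52 (adjusted p = 0.124) with PTPRC reads and 0.08 (adjusted p = 0.915) without. The C-type gene PCDHAC2 had 14.5 to 17.8 and 15.4 to 17.1 CPM, a log2 change of 0.01 (SE 0.0794, adjusted p = 0.95). Among PCDHB genes, PCDHB14 went from 12.4 to 15.1 CPM up to 15.8 to 18.5 (log2 0.32, SE 0.0705, adjusted p = 0.00154; within the PTPRC sets 0.26 and 0.22, adjusted p = 0.154 and 0.411). PCDHB2 went from 39.2 to 46.5 CPM up to 44.5 to 50.03 (log2 0.17, SE 0.054, adjusted p = 0.0265). This small call ended without Null DMSO replicate 1, 2 or 4 or Null MS78 replicate 2 or 4 (adjusted p between 0.0587 and 0.101), and in the libraries without PTPRC reads (0.785), while length-scaled TPM gave 0.27 (adjusted p = 0.00729). PCDHB5, the highest PCDHB gene, was at 59.7 to 64.6 and 63.0 to 66.8 CPM (log2 0.06, adjusted p = 0.262).

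In Y220C cells, which express the mutant, MS78 went with changes in both directions within the same clusters. Of the 39 tested genes, 4 rose and 9 fell, against 48.5% of all tested genes called, 24.9% higher and 23.6% lower. The median of the 39 was a log2 of -0.11, and that of all tested genes -0.01. The PCDHA total rose from 27.3 ± 1.24 to 31.2 ± 1.27 CPM (SD, n = 4; log2 0.19, SE 0.0434, adjusted p = 0.00099; within the PTPRC sets 0.20 and 0.21, adjusted p = 0.0663 and 0.137). PCDHA11 accounted for 3.76 of the 3.87 CPM. It stood at 7.03, 6.71, 7.65 and 7.51 CPM with DMSO and 10.6, 11.2, 10.7 and 11.5 with MS78. The groups do not overlap, and the log2 change of 0.60 (SE 0.0844, adjusted p = 5.12e-06) passed within both PTPRC sets (0.67, adjusted p = 0.0035, and 0.54, adjusted p = 0.0245). PCDHA4 was at 2.57, 3.04, 2.25 and 1.78 CPM and then 4.37, 3.65, 3.18 and 3.40 (log2 0.60, SE 0.195, adjusted p = 0.0146). PCDHA4 was not called without Y220C DMSO replicate 4 (0.0551) or Y220C MS78 replicate 1 (0.0555) and within the PTPRC sets (0.146 and 0.0858). PCDHA12 went the other way, from 3.26, 2.65, 1.46 and 0.844 CPM to 0.835, 0.925, 0.730 and 0.355 (log2 -1.52, SE 0.367, adjusted p = 0.00175). The groups overlap, the lowest DMSO library lying within the range of the MS78 libraries. In the libraries without PTPRC reads its change was -0.97 (adjusted p = 0.301), and with length-scaled TPM -0.99 (adjusted p = 0.0202).

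The PCDHB and PCDHG totals moved little in Y220C cells, by a log2 of -0.09 (SE 0.0335, adjusted p = 0.0362) and 0.09 (SE 0.0338, adjusted p = 0.0409). Both calls are fragile. The PCDHB call ended without any one of Y220C DMSO replicates 2 and 3 and Y220C MS78 replicates 2, 3 and 4, where the change was between -0.09 and -0.08 (adjusted p between 0.0517 and 0.0944). For PCDHG it ended without any one of Null DMSO replicates 1 and 4, Y220C DMSO replicates 1, 2 and 4 and Y220C MS78 replicates 2 and 4, where the change was between 0.07 and 0.09 (adjusted p between 0.0539 and 0.134). Beneath these totals single genes moved further. PCDHB5 fell from 36.5, 40.1, 40.05 and 38.9 CPM to 32.1, 31.5, 32.96 and 33.7 (log2 -0.26, SE 0.0439, adjusted p = 6.16e-05), while PCDHB6, its neighbour on the chromosome, rose from 25.3, 23.8, 23.1 and 26.3 to 30.5, 26.5, 28.4 and 27.4 (log2 0.19, SE 0.0557, adjusted p = 0.0067). Neither pair of groups overlaps. In the libraries without PTPRC reads both calls held (-0.30, adjusted p = 0.0221, and 0.33, adjusted p = 0.0404), and in those with PTPRC reads neither did (-0.15, adjusted p = 0.122, and 0.12, adjusted p = 0.343). Among lower PCDHB genes, PCDHB3, PCDHB9 and PCDHB12 fell by 0.96, 0.76 and 0.65 on the log2 scale (adjusted p = 0.0138, 0.00911 and 0.0131), from group means of 1.03, 1.47 and 1.80 CPM. PCDHB3 was not called without Y220C DMSO replicate 3 (-0.72, adjusted p = 0.0681) and PCDHB12 not without Y220C DMSO replicate 2 (-0.50, adjusted p = 0.0675). None of the 3 passed in the libraries with PTPRC reads (adjusted p = 0.325, 0.207 and 0.53) or in those without (0.141, 0.165 and 0.0766), and PCDHB12 did not pass with no filter on low genes (0.0548). With length-scaled TPM the change of PCDHB9 was -1.81 (adjusted p = 0.00752).

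PCDHGA1, PCDHGA5, PCDHGA6 and PCDHGB4 were called lower in Y220C cells with MS78 while PCDHGA3 was called higher. PCDHGA3 went from 85.7, 81.5, 86.1 and 84.3 CPM to 92.5, 105, 94.3 and 104, groups that do not overlap (log2 0.23, SE 0.0443, adjusted p = 0.000227; without PTPRC reads 0.14, adjusted p = 0.236). PCDHGA6 was at 2.96, 2.94, 3.29 and 3.56 CPM with DMSO and 1.13, 1.75, 1.15 and 2.08 with MS78 (log2 -1.06, SE 0.191, adjusted p = 0.00011). PCDHGA5 was at 1.37, 1.40, 1.60 and 1.64 and then at 0.491, 0.389, 0.209 and 0.913 CPM (log2 -1.57, SE 0.346, adjusted p = 0.000777). In both genes every MS78 library lies below every DMSO library. Both passed in the libraries without PTPRC reads (adjusted p = 0.00426 and 0.0159) but not in those with them (0.0604 and 0.102). PCDHGA1 (log2 -1.09, adjusted p = 0.0114) and PCDHGB4 (log2 -1.29, adjusted p = 0.0134) fell from 18 to 35 and 9 to 11 reads a library to 6 to 15 and 3 to 5 reads. Neither passed in the libraries with PTPRC reads (adjusted p = 0.323 and 0.237) or in those without (0.317 and 0.396). As a group the 7 PCDHGB genes together were at 6.11 ± 0.670 CPM with DMSO and 4.40 ± 0.657 with MS78 (SD, n = 4), and in null cells at 6.18 ± 0.812 and 8.14 ± 0.457. PCDHGC3, the leading gene in null cells, was at 45.1, 53.8, 49.5 and 45.2 CPM with DMSO and 53.5, 48.4, 51.2 and 45.8 with MS78, which overlap (log2 0.04, SE 0.0558, adjusted p = 0.585).

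**Figure D3:**
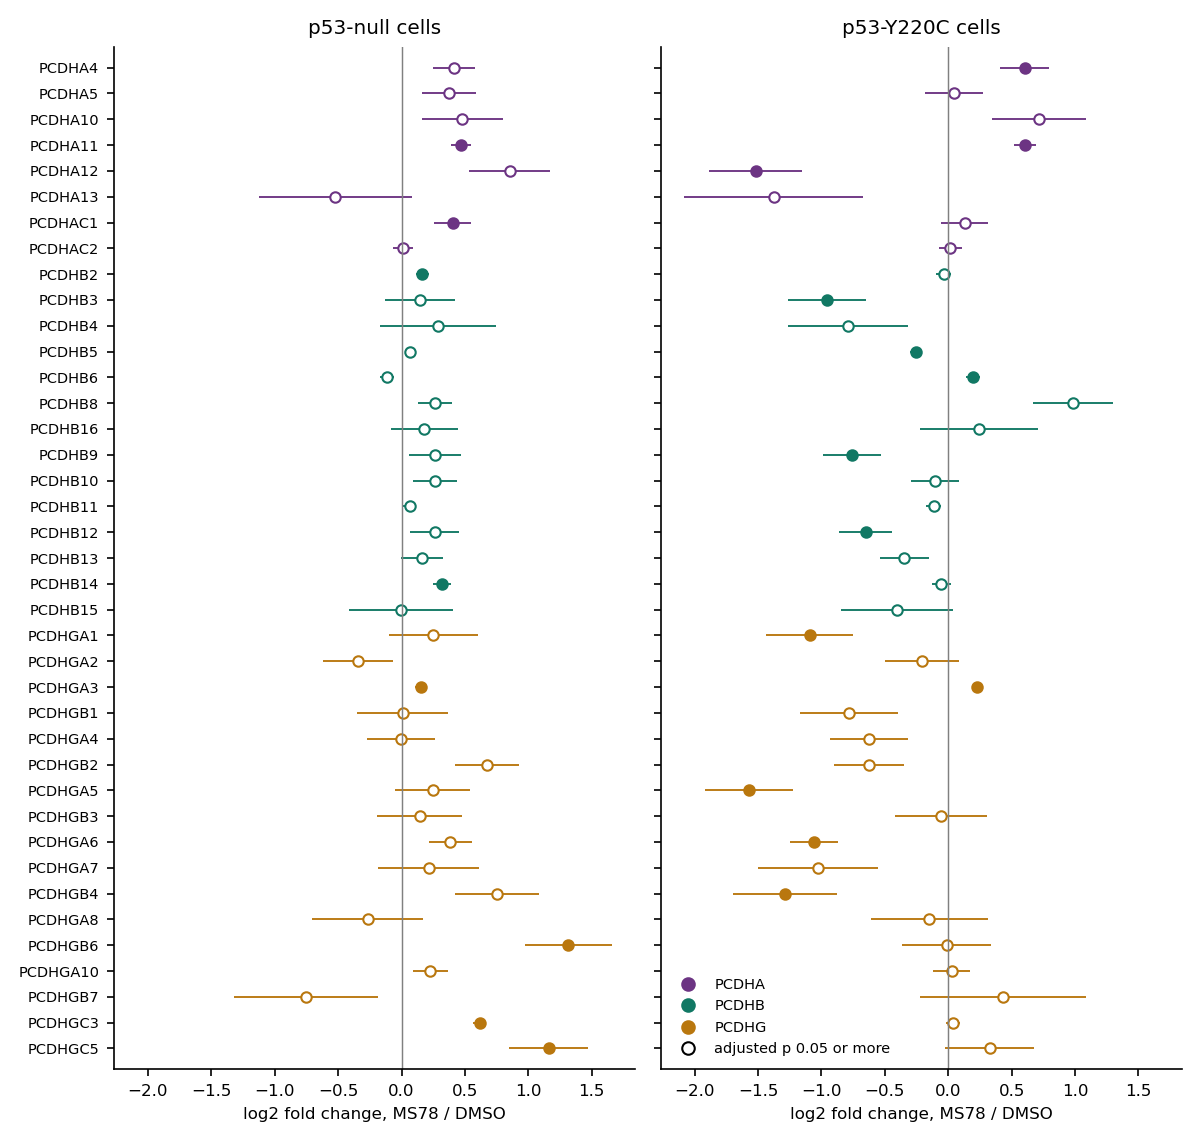
Log2 fold change of MS78 over DMSO with its SE for the 39 tested genes in chromosomal order, p53-null cells left and p53-Y220C cells right; filled points have adjusted p under 0.05. All filled points on the left are above 0, while on the right 9 of 13 are below 0, PCDHA12, PCDHGA5 and PCDHGB4 lowest.

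The difference between the lines in their response to MS78 was tested as an interaction across all 16 libraries. It passed for 12 of the 39 genes, 1 higher and 11 lower in Y220C cells, where 26.8% of all tested genes passed, 14.4% higher and 12.4% lower. The median of the 39 was a log2 of -0.38, and that of all tested genes -0.02. For PCDHGC3 the response in Y220C cells was lower by 0.58 (SE 0.0764, adjusted p = 1.12e-05; within the PTPRC sets -0.47, adjusted p = 0.00736, and -0.53, adjusted p = 0.0754). The PCDHG total differed by a log2 of -0.25 (SE 0.0473, adjusted p = 0.000464) and the PCDHB total by -0.19 (SE 0.0467, adjusted p = 0.00408). Within the PTPRC sets neither passed, at -0.21 and -0.27 for PCDHG (adjusted p = 0.102 and 0.209) and -0.21 and -0.10 for PCDHB (0.0796 and 0.665). For the PCDHA total the difference was -0.10 (SE 0.0583, adjusted p = 0.218), and for PCDHA11 0.13 (SE 0.115, adjusted p = 0.432). PCDHB5 responded lower in Y220C cells by 0.32 (adjusted p = 0.000425) and PCDHB6 higher by 0.31 (adjusted p = 0.00639). PCDHA12 (-2.37, adjusted p = 0.00107), PCDHGB4 (-2.04, 0.00655), PCDHGA5 (-1.82, 0.00529), PCDHGA6 (-1.44, 0.000301), PCDHGA1 (-1.35, 0.0481) and PCDHGB2 (-1.30, 0.0136) had the widest differences. PCDHB9, PCDHB12 and PCDHB14 also passed (-1.03, -0.91 and -0.38). The PCDHGA1 call was lost without any one of Null DMSO replicates 1, 3 and 4, Null MS78 replicates 1 and 3, Y220C DMSO replicates 3 and 4 and Y220C MS78 replicates 2, 3 and 4 (adjusted p between 0.063 and 0.141). PCDHB12 was not called without Y220C DMSO replicate 2 (-0.76, adjusted p = 0.06). With length-scaled TPM the calls of PCDHB9 (adjusted p = 0.068), PCDHB12 (0.0763), PCDHB14 (0.0785) and PCDHGB2 (0.0655) were lost, and with no filter on low genes those of PCDHB9 (0.0598), PCDHB12 (0.0852) and PCDHGA1 (0.0981). That of PCDHGA1 was also lost with DESeq2 (0.0549), protein-coding transcripts only (0.0576) and a replicate block (0.0843). Within the PTPRC sets, which leave a single library in some groups, fewer members were called, and fewer of all tested genes as well.

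**Figure D4:**
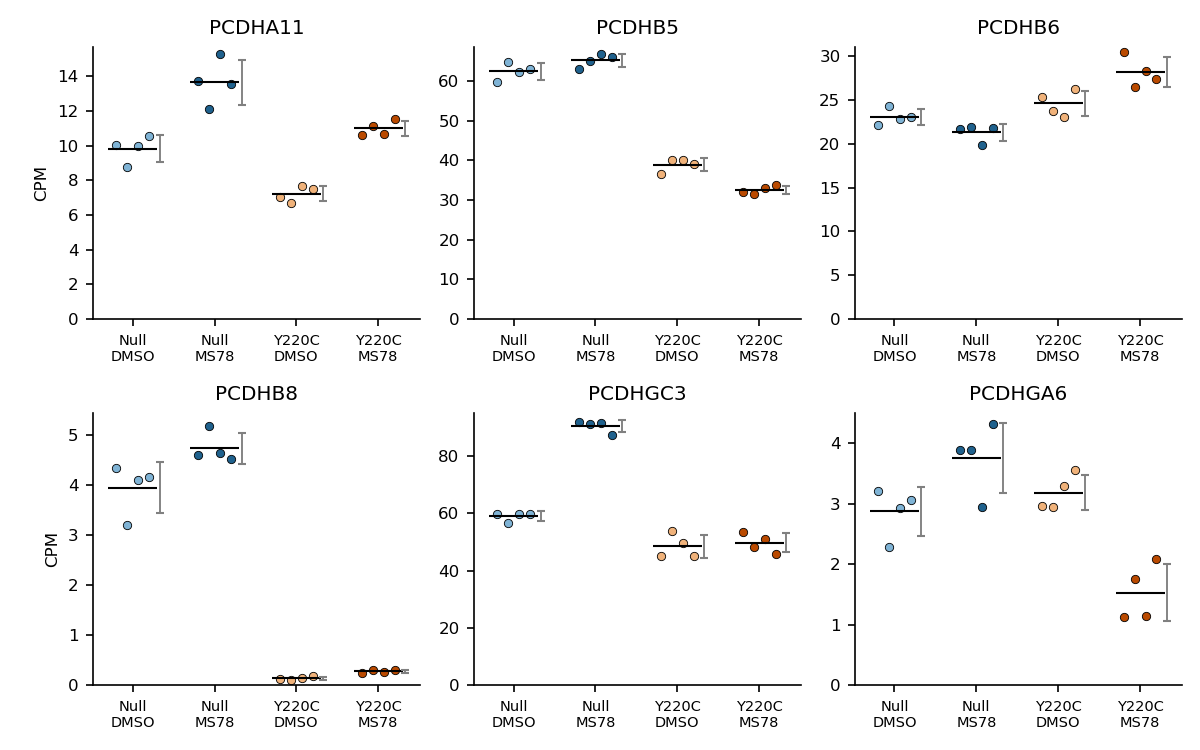
CPM of 6 genes in each library by group; points are libraries, horizontal lines group means, grey whiskers SD (n = 4), and axes start at 0. PCDHGC3 steps up with MS78 in null cells (59.0 to 90.4 CPM), PCDHA11 steps up in both lines, PCDHB5 and PCDHB6 move apart in Y220C cells, PCDHGA6 drops in Y220C cells with MS78, and PCDHB8 is near 0 in both Y220C groups.

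Under DMSO the Y220C line had less of all 3 clusters than the null line. The log2 differences of the totals were -0.67 for PCDHA (SE 0.0416, adjusted p = 5.28e-11), -0.44 for PCDHB (SE 0.033, adjusted p = 9.3e-10) and -0.21 for PCDHG (SE 0.0336, adjusted p = 3.61e-05), and all 3 passed in the libraries without PTPRC reads (3 against 3). Of the 39 genes 1 was higher and 14 were lower, against 50.2% of all tested genes called, 24.7% higher and 25.5% lower. The medians were -0.22 for the 39 and 0.00 for all tested genes. This comparison shares its libraries with the DMSO arms of the MS78 responses above. With PTPRC reads, at 1 library against 1, 8 of the 15 calls were kept. Those of PCDHA4 (adjusted p = 0.101), PCDHGA3 (0.194), PCDHA10 (0.302), PCDHA11 (0.0508), PCDHB13 (0.451), PCDHB14 (0.246) and PCDHGA1 (0.312) were lost, and PCDHA12 was called higher (log2 1.475, adjusted p = 0.0269).

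PCDHB8 and PCDHB16, adjacent on the chromosome (141177790 to 141180529 and 141181399 to 141186399), showed the widest gap of the 39 tested genes. PCDHB8 had 101, 74, 95 and 106 reads in null cells with DMSO and 3, 2, 3 and 4 in Y220C cells, or 3.94 ± 0.512 against 0.136 ± 0.0336 CPM (SD, n = 4; log2 -4.80, SE 0.211, adjusted p = 3e-13). PCDHB16 had 47, 33, 34 and 32 reads against 4, 1, 4 and 4 (log2 -3.33, SE 0.352, adjusted p = 1.32e-07). Both calls held in the libraries without PTPRC reads (3 against 3) and without any one library, although length-scaled TPM gave PCDHB16 a log2 difference of -1.62 (adjusted p = 0.00851). The gene on the other side of PCDHB16, PCDHB9, was at 1.25 to 1.84 CPM in null and 1.07 to 2.02 in Y220C cells. PCDHB13, whose transcripts hold 43.3% of the 31-base stretches of PCDHB8, was at 2.58 ± 0.472 and 1.56 ± 0.192 CPM (log2 -0.73, SE 0.175, adjusted p = 0.00168).

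The higher PCDHB genes differed less in ratio but more in level. PCDHB5 was at 59.7, 64.6, 62.1 and 63.0 CPM in null cells and 36.5, 40.1, 40.05 and 38.9 in Y220C cells (log2 -0.68, SE 0.0411, adjusted p = 3.47e-11), a difference of -23.5 CPM where that of the total was -47.1 CPM. PCDHB2 (log2 -0.46, adjusted p = 1.15e-06) and PCDHB11 (log2 -0.43, adjusted p = 1.92e-06) were also lower, without overlap, while PCDHB6 was at 22.2 to 24.4 and 23.1 to 26.3 CPM (log2 0.09, adjusted p = 0.171). In the PCDHA cluster the C-type genes gave most of the difference. PCDHAC2 was at 16.9, 15.1, 17.8 and 14.5 CPM against 8.74, 10.1, 11.6 and 9.96 (log2 -0.67, SE 0.0838, adjusted p = 1.29e-06). PCDHAC1 was at 5.32, 7.03, 4.48 and 5.02 against 2.06, 2.46, 1.97 and 1.91 (log2 -1.38, SE 0.168, adjusted p = 8.96e-07). Neither gene's groups overlap, and both calls held in the libraries without PTPRC reads (3 against 3). PCDHA10, PCDHA4 and PCDHA11 were lower by a log2 of -1.18, -1.07 and -0.44 (adjusted p = 0.00949, 6.79e-05 and 0.000172). Among PCDHG genes, PCDHGC3 (log2 -0.29, adjusted p = 0.000183; with length-scaled TPM -0.23, adjusted p = 0.0768) and PCDHGA3 (log2 -0.20, adjusted p = 0.000691) were lower, and PCDHGA1, at 9 to 16 reads against 18 to 35, was the single gene called higher (log2 1.25, adjusted p = 0.00422). PCDHB14 was also called lower (log2 -0.21, adjusted p = 0.0228), and this call was lost without Null DMSO replicate 1 or 3 or Y220C DMSO replicate 3 or 4 (adjusted p between 0.0637 and 0.0889), without PTPRC reads (0.125) and with length-scaled TPM (0.175).

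Under MS78 the gap between the lines was -0.77 for the PCDHA total, -0.63 for PCDHB and -0.46 for PCDHG (SE 0.0408, 0.0331 and 0.0334, adjusted p = 1.83e-12, 1.55e-12 and 2.66e-10), and all 3 passed in the libraries with PTPRC reads (3 against 3). Of the 39 genes 26 were lower and 1 was higher in Y220C cells, where 61.8% of all tested genes were called, 30.7% higher and 31.2% lower. The medians were -0.76 for the 39 and -0.01 for all tested genes. The gene called higher was PCDHB6, at 21.7, 21.96, 19.9 and 21.8 CPM in null and 30.5, 26.5, 28.4 and 27.4 in Y220C cells (log2 0.40, SE 0.056, adjusted p = 2.99e-06). Its neighbour PCDHB5 was at 63.0, 64.9, 66.8 and 65.9 against 32.1, 31.5, 32.96 and 33.7 (log2 -1.0, SE 0.0421, adjusted p = 5.12e-14). PCDHGC3 was at 91.9, 91.1, 91.6 and 87.2 against 53.5, 48.4, 51.2 and 45.8 (log2 -0.86, SE 0.0536, adjusted p = 2.24e-11), a difference of -40.7 CPM where that of the PCDHG total was -61.6 CPM. None of these groups overlap.

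The widest ratios under MS78 were those of PCDHB8 (118, 144, 112 and 93 reads against 5, 6, 5 and 6; log2 -4.08, adjusted p = 2.41e-13) and PCDHB16 (49, 51, 28 and 43 reads against 4, 4, 4 and 2; log2 -3.27, adjusted p = 6.76e-08). PCDHGB4, PCDHA12, PCDHGA5 and PCDHAC1 followed with log2 differences of -2.08, -2.02, -1.78 and -1.65 (adjusted p = 9.24e-05, 5.22e-05, 0.00013 and 2.83e-08). By cluster, 6 of 8 tested PCDHA genes were lower, 11 of 14 PCDHB genes and 9 of 17 PCDHG genes. PCDHA10 (log2 -0.94, adjusted p = 0.0192) and PCDHGA3 (log2 -0.13, adjusted p = 0.0168) rested on single libraries: PCDHA10 was not called without Null MS78 replicate 3 (0.0803) or Y220C MS78 replicate 3 (0.0616) or 4 (0.0658), nor PCDHGA3 without Y220C MS78 replicate 1 (0.0759) or 3 (0.0658). With length-scaled TPM neither was called (adjusted p = 0.208 and 0.0599), and PCDHGA3 was not called in the libraries with PTPRC reads (0.0773). Between the only MS78 libraries without PTPRC reads, replicate 1 of each line, the log2 difference of PCDHA10 was 0.08 (adjusted p = 0.945). With replicate number as a block in the 8 MS78 libraries, a pairing that was assumed, PCDHGB3 (log2 -0.59, adjusted p = 0.0406) and PCDHGB6 (log2 -0.815, adjusted p = 0.0437) passed as well.

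**Figure D5:**
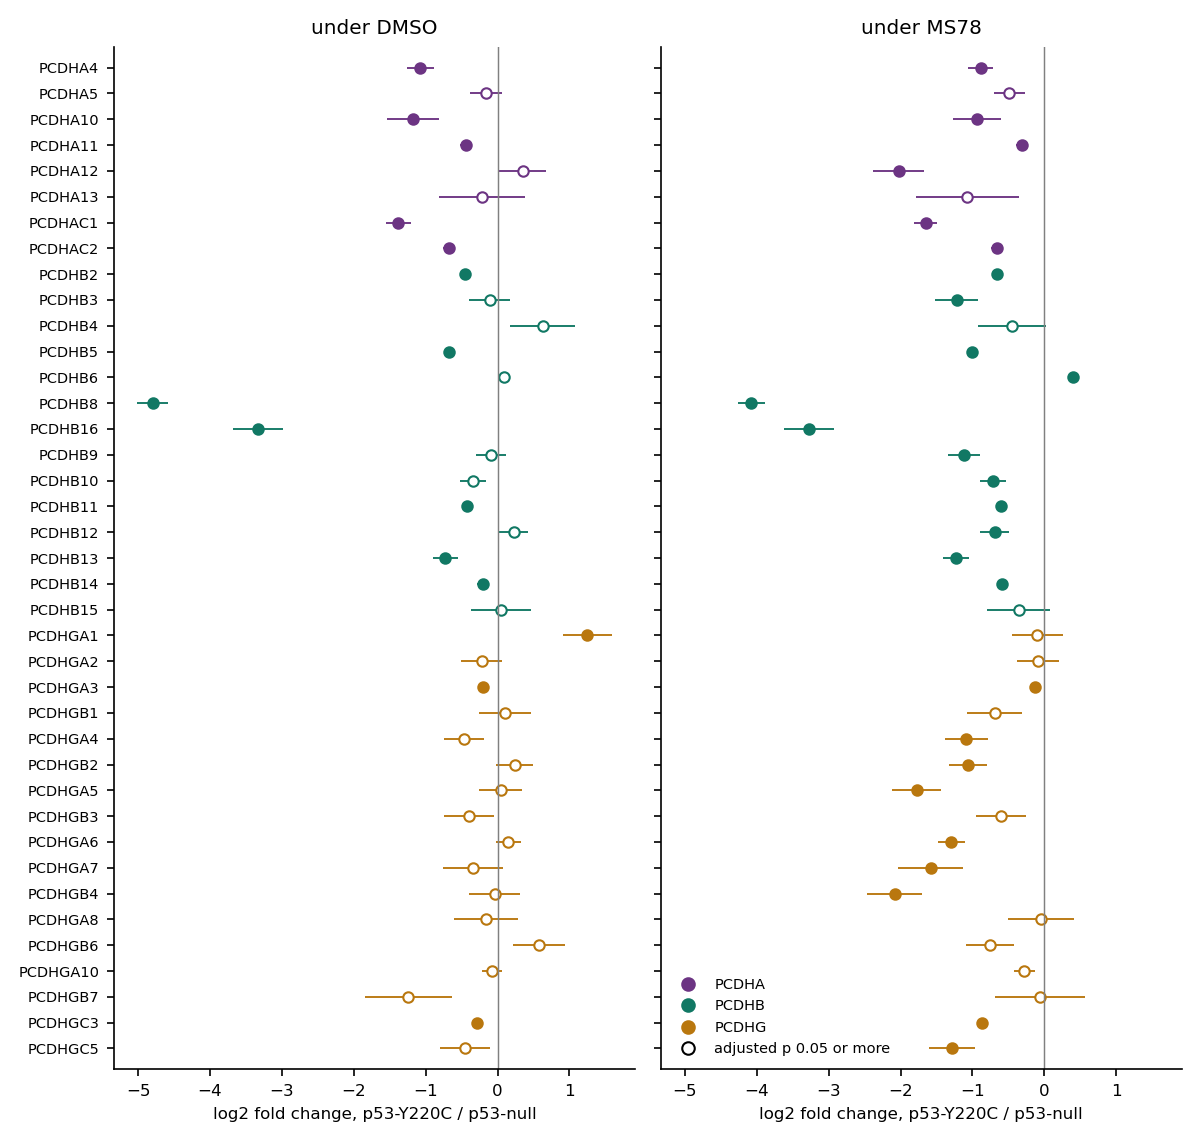
Log2 fold change of the Y220C line over the null line with its SE for the 39 tested genes in chromosomal order, under DMSO left and under MS78 right; filled points have adjusted p under 0.05. PCDHB8 and PCDHB16 are lowest in both panels (-4.80 and -3.33, then -4.08 and -3.27), and PCDHB6 is the one filled point above 0 on the right.

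The authors' estimates also separate transcripts that include the constant exons from those that do not. Of 41 PCDHA transcripts 17 hold no constant exon, and 25 of 54 PCDHG transcripts. Such transcripts took 21.7% ± 2.47 of the PCDHA reads in null cells with DMSO and 22.1% ± 1.49 with MS78, and 15.8% ± 1.48 and 16.7% ± 2.46 in Y220C cells (SD, n = 4). The null libraries (19.6% to 25.3%) lie above the Y220C libraries (13.2% to 18.8%). This share also depends on which genes supply the reads. PCDHAC1, mostly on such a transcript, took 12.6% and 13.6% of the PCDHA reads in null cells with DMSO and MS78. In Y220C cells it took 7.69% and 7.39%. The part of this shift between genes in the gap was not tested. For PCDHG the share was 19.6% ± 1.73, 19.7% ± 3.28, 21.8% ± 4.26 and 19.5% ± 1.04 in the same order, with overlapping groups. PCDHAC1 reads were mostly on the transcript without constant exons (93.4% ± 13.2 in null cells with DMSO, 81.6% ± 13.4 with MS78 where the lowest library was at 62.98%, and 100% in both Y220C groups), whereas those of PCDHAC2 were nearly all on transcripts with them (at most 3.30% without, in any library). The share without constant exons ran from 0% to 100% between libraries for PCDHA12, PCDHGA4, PCDHGA5, PCDHGB1, PCDHGB2, PCDHGB3, PCDHGB4, PCDHGB6 and PCDHGC5. Their split between transcripts is thus not resolved at this depth.

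Of 11 genes of CTCF, cohesin and its loaders, which are known to act at these promoters, all were tested and 4 were called with MS78 in null cells, each lower, where 28.1% of all tested genes were called, and 1 rose and 3 fell in Y220C cells, where 48.5% were. RAD21, the kleisin subunit of cohesin, fell from 639 to 503 CPM in null cells (log2 -0.35, SE 0.0311, adjusted p = 2.41e-08) and from 577 to 412 in Y220C cells (log2 -0.49, SE 0.0313, adjusted p = 5.85e-11). SMC1A, a cohesin core subunit, fell by 0.27 and 0.45 on the log2 scale (adjusted p = 7.12e-06 and 2.34e-09). Of 15 genes of repression and DNA methylation, 4 were called in null cells, each lower, and 3 rose and 8 fell in Y220C cells. DNMT1, the maintenance methyltransferase, changed by -0.49 and -0.60 (adjusted p = 1.37e-09 and 3.37e-11), EZH2, which methylates histone H3, by -0.57 and -0.53 (7.48e-10 and 2.74e-09), and DNMT3B, a de novo methyltransferase, by -0.55 and -0.66 (0.00631 and 0.000815). DNMT3A was at 42.8 and 40.4 CPM in null cells (adjusted p = 0.181) and fell from 38.6 to 26.3 in Y220C cells (log2 -0.55, adjusted p = 7.35e-09). Between the lines under DMSO, 5 of the 11 CTCF and cohesin genes were higher and 3 lower in Y220C cells, and 4 of the 15 repression genes were higher and 8 lower, where 50.2% of all tested genes were called. WAPL, which releases cohesin, was higher by 0.33 (adjusted p = 3.63e-06) and MAU2, a loader subunit, by 0.32 (3.54e-06). Whether these changes bear on the protocadherins was not tested.

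Of 12 protocadherins outside the clusters 6 could be tested. With MS78, 3 of the 6 were called in Y220C cells, each lower, where 48.5% of all tested genes were called. Under DMSO 1 was higher and 4 were lower in the Y220C line, where 50.2% of all tested genes were called. PCDH7 was at 66.2 and 18.7 CPM (log2 -1.83, SE 0.0554, adjusted p = 7.53e-16), PCDH10 at 4.68 and 1.74 (log2 -1.42, adjusted p = 5.55e-07), PCDH1 at 3.14 and 1.18 (log2 -1.41, adjusted p = 1.11e-05) and PCDH9 at 5.30 and 3.18 (log2 -0.74, adjusted p = 1.88e-05). Under MS78 1 was higher and 5 were lower, where 61.8% of all tested genes were called. Of 14 tested genes that neighbour the clusters on 5q31, 4 rose and 3 fell with MS78 in Y220C cells. Between the lines, 3 were higher and 7 lower under MS78, with a median of -0.065. Under DMSO 1 was higher and 4 lower, with a median of -0.015, and NDUFA2, a subunit of respiratory complex I, had the widest difference (log2 -0.49, adjusted p = 2.92e-05). TAF7, a TFIID subunit encoded between the PCDHB and PCDHG clusters, was at 142 and 141 CPM (adjusted p = 0.866) in the lines under DMSO and rose with MS78 in both (log2 0.10, adjusted p = 0.0344, and 0.33, adjusted p = 8.48e-08).

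The following counts stand beside 28.1% (MS78 in null cells), 48.5% (MS78 in Y220C cells) and 50.2% (lines under DMSO) of all tested genes called. Among 12 tested signalling partners of the cytoplasmic ends, FYN alone was called with MS78 in null cells (log2 -0.29, adjusted p = 0.00135), 3 rose and 2 fell in Y220C cells, and 3 were higher and 6 lower in the Y220C line under DMSO. CYFIP2, a subunit of the WAVE complex that remodels actin, was at 10.7 CPM in null and 4.27 in Y220C cells (log2 -1.31, SE 0.113, adjusted p = 7.45e-09). Of 7 genes of the proteases known to cleave protocadherins, 4 were called with MS78 in null cells, each higher, 3 rose and 2 fell in Y220C cells, and 5 were higher and 2 lower in the Y220C line under DMSO. ADAM10, the shedding protease, rose by a log2 of 0.28 and 0.21 with MS78 (adjusted p = 3.77e-05 and 0.000587). Of the classical cadherins and catenins, 6 of 10 could be tested. With MS78, 1 was called lower in each line, and 2 were higher and 1 lower in the Y220C line under DMSO, with JUP, which links cadherins to the cytoskeleton, higher by 1.10 (adjusted p = 9.43e-09).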

How the data were processed

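The authors deposited 1 transcript table per library with estimated read counts (NumReads), TPM and effective length, per the file headers. The sources used here do not give the quantifier, its settings or the counting strand. The submitters' processing notes name FastQC 0.11.8 and hg38. Of 197653 listed transcripts, 193348 (97.82%) matched GENCODE 29 by identifier, and transcripts without a match held 0.278% to 0.325% of a library's reads. Estimated counts were summed per gene over transcripts and rounded, and deposited TPM values were summed likewise. The overlap of reads between these similar genes rests on the authors' estimation.

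All 16 libraries entered 1 edgeR 4.0.16 fit (R 4.3.3, limma 3.58.1) with 4 groups, TMM scaling, the default filter on low counts (15687 genes kept), a quasi-likelihood F-test with 12 residual degrees of freedom, and Benjamini-Hochberg adjustment over all tested genes at 0.05. CPM are TMM-scaled, and SE is the log2 fold change divided by the root of F. For cluster totals the members were replaced by 3 summed rows in the same kind of fit. The method was tested on simulated counts of independent libraries with few changed genes and no split by PTPRC reads. That test does not bear on the single calls given here. Alternatives were DESeq2 1.42.0, other filters, length-scaled TPM, protein-coding transcripts only, a replicate block, a term for PTPRC reads, each PTPRC set alone, and leaving out each library. Named with values are genes with at least 1 CPM in a group and up to 6 risen and 6 fallen genes per comparison, and from other lists up to 4. Some further gene results are not reported here. The members and lists were chosen with earlier results of these data known.

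Replicate numbers carried no stated meaning. Deviations of same-numbered libraries correlated at 0.15 to 0.531 in all 4 pairs between the lines under MS78. Under DMSO the correlations ranged from -0.057 to 0.452, and between treatments from -0.502 to -0.042 over both lines. Different-numbered libraries were not compared, and replicate 1 of each line was its only MS78 library without PTPRC reads. The correlations therefore cannot show pairing, which was assumed for the block in the MS78 libraries alone.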

Additional observations from a re-analysis of the deposited data

Results flagged for a closer look

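The response to MS78 differed between the lines, by the interaction test in edgeR, for the PCDHB total (log2 -0.19, Y220C minus null) and the PCDHG total (-0.25). Among single genes it differed for PCDHB5 (-0.32), PCDHB6 (0.31), PCDHB14 (-0.38), PCDHB12 (-0.91), PCDHB9 (-1.03), PCDHGA1 (-1.35), PCDHGC3 (-0.58), PCDHA12 (-2.37), PCDHGA5 (-1.82), PCDHGA6 (-1.44), PCDHGB2 (-1.30) and PCDHGB4 (-2.04). PCDHB9, PCDHB12, PCDHGA1, PCDHGA5, PCDHGB4 and PCDHA12 had fewer than 100 reads in every library.

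In 7 of 144 groups of 4 libraries, 1 library stood apart from the others by Dixon's test, and chance flags about 1 in 20 groups. PCDHGC3 was at 56.5 CPM in Null DMSO replicate 2 against 59.7 to 59.9 in the others, and PCDHB6 at 19.9 CPM in Null MS78 replicate 3 against 21.7 to 21.96. PCDHGB2 was at 1.14 CPM in Null DMSO replicate 4 against 2.15 to 2.23. In Y220C DMSO replicate 2, PCDHB12 was at 2.37 CPM against 1.54 to 1.64 and PCDHB16 at 0.0483 against 0.171 to 0.188. In Y220C MS78 replicate 4, PCDHAC1 was at 2.99 CPM against 2.00 to 2.16 and PCDHB16 at 0.101 against 0.195 to 0.209.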

How the results depend on the processing

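Of 74 named gene results past the threshold, 63 were kept in all 16 fits that left out 1 library, which each lost 1 to 4. Depth limits the lowest genes, where a few reads decide a value, and the PTPRC sets leave 4 residual degrees of freedom: those with PTPRC reads kept 40 of the 74 and those without kept 35. The causes were not tested. The called difference of PCDHA10 between the lines under MS78 became 0.081 (adjusted p = 0.945) without PTPRC reads, at 1 library against 1, a lost call near 0. PCDHB16 with MS78 in Y220C cells was at -1.46 (adjusted p = 0.0491) on length-scaled TPM, against 0.25 with counts.

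Counts of called members moved by over 1.5 times as follows: for MS78 in null cells from 8 to 5 with length-scaled TPM, 3 with PTPRC reads only and 1 without. For MS78 in Y220C cells they went from 13 to 3 with and 5 without PTPRC reads, between the lines, at 1 library against 1, from 15 to 9 with them (DMSO) and from 27 to 16 without (MS78), and for the interaction from 12 to 2 and 1. Calls among all genes fell as well. With length-scaled TPM, MS78 in null cells gave 1447 higher and 1401 lower of 15762 tested genes. The main fit gave 2319 and 2083 of 15687. Within each PTPRC set, fewer of all tested genes were called in every comparison. The member counts alone therefore do not show that these genes depend more on the processing than other genes. Leaving out 1 library gave 6 to 9, 12 to 14, 14 to 15, 27 to 29 and 11 to 13 member calls in the 5 comparisons.

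Totals that lost their call were, for MS78 in null cells, PCDHA without PTPRC reads (0.304) and PCDHB with no filter (0.10), with PTPRC reads only (0.141) and without (0.049). For MS78 in Y220C cells PCDHA lost it with (0.201) and without PTPRC reads (0.206). PCDHB lost it with no filter (-0.099), a replicate block (-0.088, adjusted p = 0.0536), a PTPRC term (-0.079), with PTPRC reads (-0.075) and without (-0.052). PCDHG lost it with no filter (0.075), length-scaled TPM (0.057), protein-coding transcripts (0.068), a replicate block (0.087, adjusted p = 0.0582), a PTPRC term (0.086), with PTPRC reads (0.126) and without (0.058). The interaction lost it with and without PTPRC reads, for PCDHB (-0.215 and -0.101) and PCDHG (-0.208 and -0.267). Without 1 library, PCDHB in null cells ran from 0.087 to 0.125, PCDHB in Y220C cells from -0.101 to -0.079 and PCDHG there from 0.069 to 0.103. Other totals kept their calls in these fits.

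With the replicate block, called members were 9, 13, 15, 27 and 11 in the 5 comparisons. In the MS78 libraries alone, pairing by number was assumed and not shown (a fit added after seeing the data). There 28 of 33 tested members were called, and no total changed its call. Of all 14980 genes tested in that fit, 4825 were called higher and 4854 lower in Y220C cells.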
